A study of Mus musculus with 12 samples.

Results

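The genes described here encode the proteasome and the proteins that build, open and block it. They are the symbols of the deposited count table that consist of Psma, Psmb, Psmc, Psmd, Psme, Psmf or Psmg and a number, with pseudogenes left out: 48 of 53819 symbols. By the roles of their products, 7 form the standard alpha ring of the core, 7 the standard beta ring and 5 are inducible or tissue-specific core subunits. A further 9 belong to the base of the regulatory particle, 8 to its lid, 7 are assembly chaperones, 4 are alternative activators and 1 is an inhibitor. Of the 48 genes, 47 had enough counts to be tested, and Psmb11 had too few.

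The cells were E14 mouse embryonic stem cells, a single established line, grown in 2 dimensions. The 4 groups held 3 libraries each. One received proline plus budesonide, another proline alone and another budesonide alone, every treatment lasting 72 h, and the last was left untreated and is called control. Libraries are named by group and replicate number, as in proline 1 and, for cells with both compounds, both 1. Proline is an amino acid and budesonide a synthetic glucocorticoid, and no dose is stated in the labels. Whether replicates came from separate cultures is not stated, and a p-value here therefore measures only how far these libraries spread, which could be technical.

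The proteasome degrades proteins that carry chains of ubiquitin. Its core is a barrel of stacked alpha and beta rings whose proteolytic sites sit on the beta subunits Psmb5, Psmb6 and Psmb7, while the regulatory particle recognises the ubiquitin chain, removes it in the lid and unfolds the protein with a ring of ATPases in the base. Cells exposed to interferon can replace the proteolytic subunits with Psmb8, Psmb9 and Psmb10 and can cap the core with the Psme1 and Psme2 activator, a form known from antigen presentation. Embryonic stem cells are known for high proteasome activity, which has been tied in human stem cells to the lid subunit PSMD11.

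The libraries held 5.30 to 15.9 M counts, and the proteasome genes took 0.996% to 1.29% of them. Levels are given as CPM, counts scaled to a common library size after TMM adjustment. The libraries were made from the 3′ ends of transcripts, with 1 fragment a transcript, so CPM was not divided by transcript length. The summed level of 5 stem cell markers (Pou5f1, Sox2, Nanog, Esrrb and Zfp42) was 1333 ± 56.2 CPM with both compounds, 773 ± 32.6 CPM with proline, 1284 ± 70.1 CPM with budesonide and 1291 ± 79.9 CPM in control cells (SD, n = 3 each). Blood and immune markers summed to 0.888 to 5.71 CPM per library, and their defining gene Ptprc was at 0 in 11 of the 12 libraries. The libraries control 3 and budesonide 3 had 6.57% and 8.43% of tested genes at 0, against 1.39% to 5.77% in the others, and the counts of calls are also given without them. Endoderm markers summed to 3.24 to 12.3 CPM and trophoblast markers to 3.10 to 10.8 CPM per library. In bulk RNA, fewer cells of a type and less RNA per cell cannot be told apart.

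As a group the proteasome genes stood highest with proline and lowest with budesonide. Their summed level was 11046, 10934 and 11075 CPM with both compounds, 13405, 12721 and 12853 CPM with proline, 9999, 10178 and 9885 CPM with budesonide, and 11066, 11748 and 11857 CPM in control cells. The 3 proline libraries lay above all other libraries and the 3 budesonide libraries below all others, while the libraries with both compounds overlapped the lowest control library and none of the proline libraries. These sums are described without a test. The structural classes did not all follow the same order. The standard alpha ring summed to 2085 ± 111 CPM with both compounds, 2637 ± 92.8 CPM with proline, 1826 ± 51.7 CPM with budesonide and 2165 ± 107 CPM in control cells (SD, n = 3 each). In the standard beta ring the sum was 2278 ± 113 CPM with both compounds, 2591 ± 81.1 CPM with proline, 2129 ± 132 CPM with budesonide and 2401 ± 221 CPM in control cells, with overlap between neighbouring groups. The base of the regulatory particle summed to 2955 ± 27.9 CPM with both compounds, 3693 ± 135 CPM with proline, 2856 ± 28.8 CPM with budesonide and 3415 ± 249.6 CPM in control cells, so that cells with both compounds lay close to budesonide cells. The lid summed to 2646 ± 188 CPM with both compounds, 2786 ± 81.5 CPM with proline, 2258 ± 62.01 CPM with budesonide and 2501 ± 136 CPM in control cells. In the lid the libraries with both compounds overlapped those with proline and those of control cells. The ratio of base and lid to standard core was 1.29 ± 0.0999 with both compounds, 1.24 ± 0.0123 with proline, 1.29 ± 0.0426 with budesonide and 1.30 ± 0.0172 in control cells.

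**Figure D1:**
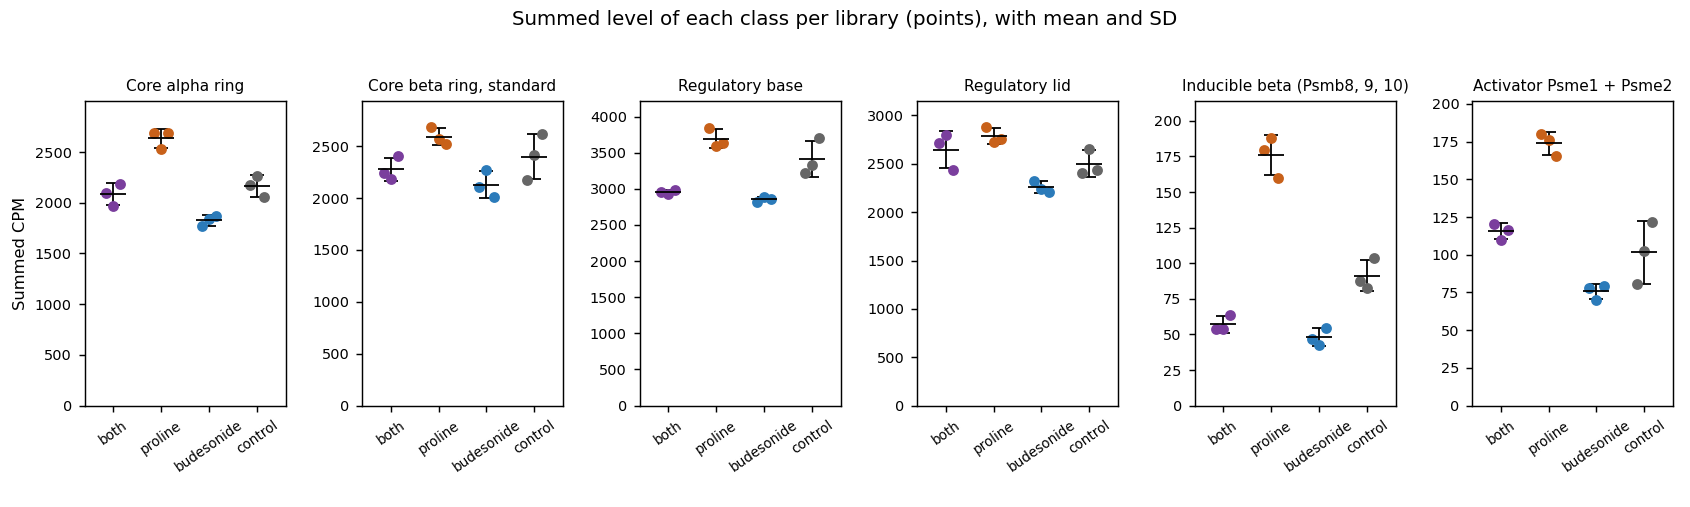
Summed level of 6 classes of proteasome genes, in CPM, for each library (points) of cells with both compounds, proline, budesonide or neither (control), with the mean (long bar) and SD of 3 libraries. The inducible beta subunits averaged 57.0 CPM with both compounds, 176 CPM with proline, 47.9 CPM with budesonide and 91.35 CPM in control cells.

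Single genes spanned a wide range of levels. Psmd1, the largest subunit of the base and a scaffold for ubiquitin receptors, was the highest by its mean over all libraries at 690 CPM. Psmb11, which belongs to the proteasome of the thymic cortex, was the lowest at 0.216 CPM, with summed counts of 0 with both compounds, 1 with proline, 1 with budesonide and 15 in control cells. Among the standard beta subunits, Psmb7, which carries the trypsin-like site, was counted at 2.62 ± 1.49 CPM with both compounds, 5.77 ± 2.72 CPM with proline, 0.393 ± 0.113 CPM with budesonide and 3.39 ± 2.01 CPM in control cells (SD, n = 3 each), while the other members of its ring averaged 88.7 to 617 CPM. The annotated 3′ end of Psmb7 overlaps that of Nek6 on the other strand, and how reads in such overlaps were counted is not given in the sources used here, so the level of Psmb7 is uncertain. In all, 14 of the 48 genes have a match to their last 300 bases in another annotated gene (at least 95% identity over at least 100 bases), among them Psma3, Psma4, Psmc3, Psmd1, Psme1 and Psme2. For Psmb7, Psmb8, Psmc3 and Psmd1 the matching gene also overlaps their exons, so the match need not be a separate copy. Exons of a gene on the other strand overlap 11 of the 48, and exons of a gene on the same strand overlap 3 (Psmb5, Psmd1 and Psmg3). Their levels carry the same uncertainty.

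Proline was first set against control to show what the amino acid alone did. Of the 47 genes tested, 6 rose and 1 fell with proline, where 7.88% of all 13852 genes tested were called (3.17% higher and 4.71% lower) by edgeR's quasi-likelihood test at an adjusted p below 0.05. The risers came from the activators (Psme2 and Psme3), the inducible core (Psmb10) and, with smaller changes, the alpha ring (Psma7), the base (Psmc5) and the lid (Psmd7), and the gene that fell was the activator Psme4. The median log2 change of the 47 genes was 0.23, beside −0.01 for all genes tested. In 14 genes (29.8%) every proline library lay above every control library, against 12.7% of all genes, and in 3 (6.38%) every proline library lay below, against 14% of all genes. In the same comparison 3 of the 5 stem cell markers fell, and the feeder fibroblast markers summed to 3.84 ± 2.17 CPM with both compounds, 21.1 ± 2.96 CPM with proline, 8.19 ± 3.76 CPM with budesonide and 13.9 ± 4.95 CPM in control cells. Of these 8 markers 4 were tested, and none was called with proline. The proline sum was mostly Thy1 (11.9 CPM) and Dcn (5.69 CPM), while Col1a1 was lower with proline (0.293 CPM) than in control cells (2.72 CPM). The endoderm markers summed to 8.77 ± 1.24 CPM with both compounds, 10.47 ± 2.52 CPM with proline, 5.40 ± 2.94 CPM with budesonide and 5.01 ± 3.03 CPM in control cells. Of these 4 markers 1, Sox17, was called higher with proline, and in 7 of the 20 alternatives (adjusted p 0.00792 to 0.153). Sox17 had a summed count of only 1 in control cells. It was also called higher with budesonide alone, again not in every alternative. Gata4 and Gata6 had higher means with proline than in control cells, and Foxa2 a lower one (0.818 against 1.70 CPM). Mitochondrially encoded genes took 5.51% to 5.79% of the counts in the proline libraries, against 7.31% to 8.03% in all others. The part of these markers and shares in the proteasome changes was not tested.

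Among the activators, Psme2 encodes a subunit of the ring-shaped activator that opens the core without ATP. It had 43.8, 44.01 and 49.8 CPM with both compounds, 81.8, 82.1 and 74.3 CPM with proline, 31.9, 23.7 and 17.9 CPM with budesonide, and 40.3, 35.7 and 41.3 CPM in control cells. All proline libraries lay above every library of the other groups, and Psme2 rose with proline (log2 change 1.02 ± 0.20 (SE), adjusted p = 0.00187). Its partner Psme1 had 76.4, 65.8 and 66.96 CPM with both compounds, 98.1, 93.7 and 91.3 CPM with proline, 46.4, 46.5 and 61.2 CPM with budesonide, and 40.3, 66.7 and 80.5 CPM in control cells. Every proline library of Psme1 was above every control library, but the control libraries spread widely and the change was not called (log2 change 0.60 ± 0.20 (SE), adjusted p = 0.0716). Psme3, whose product forms a nuclear activator ring of its own, had 130.4, 133 and 135 CPM with both compounds, 171, 172 and 184 CPM with proline, 86.1, 121 and 106 CPM with budesonide, and 117, 126 and 123 CPM in control cells. The proline libraries were again the highest of all, and Psme3 rose (log2 change 0.53 ± 0.13 (SE), adjusted p = 0.0152). Psme4 encodes a large single-chain activator linked in mouse to histone degradation in germ cells. It had 232, 222 and 247 CPM with both compounds, 174, 165 and 159.8 CPM with proline, 300.3, 244 and 219.5 CPM with budesonide, and 248, 239.6 and 195 CPM in control cells. Here the proline libraries were the lowest of all 12, and Psme4 fell with proline (log2 change −0.45 ± 0.13 (SE), adjusted p = 0.0340).

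Psmb10, the inducible subunit with trypsin-like activity, was the core gene with the largest called change. It had 49.7, 50.005 and 62.96 CPM with both compounds, 172, 185 and 151 CPM with proline, 45.3, 40.5 and 54.8 CPM with budesonide, and 87.1, 81.5 and 103 CPM in control cells. The proline libraries were above all others, the control libraries came next, and the libraries with budesonide, alone or with proline, were lowest and overlapped each other. Psmb10 rose with proline (log2 change 0.90 ± 0.16 (SE), adjusted p = 0.000662). The other inducible subunits, Psmb8 and Psmb9, were barely counted. Psmb8 had 1.54, 1.32 and 0.800 CPM with both compounds, 5.95, 2.37 and 5.56 CPM with proline, 0, 0 and 0 CPM with budesonide, and 0, 0.964 and 0 CPM in control cells, from summed counts of 25 with both compounds, 147 with proline, 0 with budesonide and 5 in control cells. The budesonide count of 0 allows up to 0.136 CPM over the group, on a floor of 3 counts. Psmb9 had 2.61, 2.19 and 0 CPM with both compounds, 2.36, 1.18 and 3.33 CPM with proline, 1.24, 1.86 and 0 CPM with budesonide, and 0.327, 0.385 and 0.925 CPM in control cells, from summed counts of 32 with both compounds, 68 with proline, 23 with budesonide and 10 in control cells. Neither was called with proline (adjusted p = 0.140 for Psmb8 and 0.525 for Psmb9). Both overlap a gene on the other strand, Psmb8 the annotated gene Gm20496, which also matches its 3′ end, and Psmb9 the gene Tap1. The summed level of the 6 blood and immune markers was 2.66 ± 1.48 CPM with both compounds, 1.20 ± 0.412 CPM with proline, 3.29 ± 1.24 CPM with budesonide and 3.17 ± 2.27 CPM in control cells (SD, n = 3 each), and the groups overlapped.

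The structural subunits that rose with proline changed less. Psma7, an alpha ring subunit, had 583, 601 and 623 CPM with both compounds, 784, 704 and 771 CPM with proline, 434, 424 and 402 CPM with budesonide, and 549, 611 and 583 CPM in control cells. The proline libraries were the highest and the budesonide libraries the lowest of all 12, and the other groups overlapped. Psma7 rose with proline (log2 change 0.37 ± 0.10 (SE), adjusted p = 0.0164). Psmc5, one of the ATPases, had 146, 142 and 164 CPM with both compounds, 227, 206 and 217 CPM with proline, 115, 130.5 and 114 CPM with budesonide, and 149, 162 and 162 CPM in control cells, and rose as well (log2 change 0.46 ± 0.12 (SE), adjusted p = 0.0186). Its proline libraries lay above all others. Psmd7, a lid subunit that pairs with the deubiquitinase Psmd14, had 569, 596 and 552 CPM with both compounds, 702, 659 and 633 CPM with proline, 452, 488 and 422 CPM with budesonide, and 485, 559 and 545 CPM in control cells. Proline libraries were highest, and Psmd7 rose (log2 change 0.33 ± 0.10 (SE), adjusted p = 0.0477). None of the 7 standard beta subunits was called with proline by edgeR or by DESeq2, with 1 at an unadjusted p below 0.05, and their log2 changes ran from 0.01 for Psmb1 to 0.76 for Psmb7. The 7 assembly chaperones gave no call by edgeR or DESeq2, with 2 at an unadjusted p below 0.05. DESeq2 called 9.47% of all genes with proline. The share of all genes at that unadjusted p was not counted in any comparison. The inhibitor Psmf1 had 35.99, 30.3 and 31.7 CPM with both compounds, 45.3, 58.3 and 50.99 CPM with proline, 15, 34.7 and 40.3 CPM with budesonide, and 27.2, 28.3 and 38.1 CPM in control cells, and was not called (log2 change 0.72 ± 0.27 (SE), adjusted p = 0.120).

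The calls of Psme2 and Psmb10 with proline held under all 20 alternatives. The call of Psme3 was lost with a replicate block and length and GC offsets together (0.0575). It was also lost without proline 3 (0.0682) or control 1 (0.0665), with the adjusted p in parentheses. Psma7 lost its call with length and GC offsets, alone (0.0756) or with the block (0.116). Leaving out proline 1 (0.0852), proline 3 (0.0678) or control 1 (0.0830) also removed that call. Psmc5 lost its call with length and GC offsets, alone (0.0609) or with the block (0.0884). Leaving out proline 1 (0.0944), proline 3 (0.0637), control 1 (0.0916) or control 2 (0.0528) also removed that call. Psme4 lost its call with length and GC offsets, alone (0.143) or with the block (0.168). It was also lost without both 1 (0.0515), proline 1 (0.0739), proline 2 (0.0920), proline 3 (0.126), control 1 (0.156) or control 2 (0.136). Psmd7 was called in only 5 of the 20 alternatives (adjusted p 0.00688 to 0.256). Without control 3 and budesonide 3 together 9 genes rose and 1 fell, where 7.81% of all genes were called.

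Budesonide alone lowered genes of the core and of the base. None of the 47 genes rose and 8 fell against control, where 6.51% of all genes were called (2.51% higher and 4% lower). The 8 were 5 of the 9 base genes (the ATPases Psmc3, Psmc4, Psmc5 and Psmc6, and the scaffold Psmd1), the alpha subunits Psma4 and Psma7, and the inducible Psmb10. The median log2 change was −0.22, beside 0.01 for all genes. In 17 genes (36.2%) every budesonide library lay below every control library, against 12.2% of all genes, and in none did every one lie above, against 11.5% of all genes.

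Psma4, an alpha subunit of the core gate, had 172, 143 and 186 CPM with both compounds, 309, 258 and 234 CPM with proline, 127, 109 and 84.6 CPM with budesonide, and 247, 212 and 184 CPM in control cells. The budesonide libraries lay below all others, and Psma4 fell (log2 change −1.01 ± 0.16 (SE), adjusted p = 0.000370). The change in Psmb10 was of similar size (−0.95 ± 0.16, adjusted p = 0.000799). Psma7 fell as well (log2 change −0.47 ± 0.10 (SE), adjusted p = 0.00405). Among the ATPases, Psmc6 had 177, 152 and 163 CPM with both compounds, 203, 227 and 189.5 CPM with proline, 172, 157 and 174 CPM with budesonide, and 260.2, 252 and 247 CPM in control cells. Control libraries were the highest of all, above proline as well as budesonide libraries. Psmc6 fell with budesonide (log2 change −0.59 ± 0.12 (SE), adjusted p = 0.00303). Psmc4 had 267, 235 and 262 CPM with both compounds, 389, 418 and 378 CPM with proline, 235, 256 and 244 CPM with budesonide, and 301, 303 and 401 CPM in control cells. Its budesonide libraries overlapped those with both compounds and lay below the rest, and Psmc4 fell (log2 change −0.45 ± 0.12 (SE), adjusted p = 0.0239). Psmc3 had 312, 342 and 343 CPM with both compounds, 463, 503 and 439 CPM with proline, 327, 324 and 289 CPM with budesonide, and 394, 384 and 494 CPM in control cells. Every budesonide library was below every control library, and Psmc3 fell (log2 change −0.44 ± 0.12 (SE), adjusted p = 0.0222), as did Psmc5 (−0.40 ± 0.12, adjusted p = 0.0497). The remaining ATPases, Psmc1 and Psmc2, were not called, with log2 changes of −0.32 and −0.19. Psmd1 had 606, 599.6 and 754 CPM with both compounds, 757, 808 and 734 CPM with proline, 651, 561 and 513 CPM with budesonide, and 738, 664 and 894 CPM in control cells. It fell with budesonide (log2 change −0.41 ± 0.12 (SE), adjusted p = 0.0437), with control 3 the highest library of all.

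The lid and the standard beta ring gave no call with budesonide by edgeR. Lid genes ran from −0.40 to 0.08 on the log2 scale. Among the 8 lid genes, 3 had an unadjusted p below 0.05 and 1 was called by DESeq2, and among the 7 standard beta genes the numbers were 5 and 3. DESeq2 called 11.7% of all genes in this comparison. The share of all genes at that unadjusted p was not counted, so those numbers cannot be set against it. The beta genes ran from −3.05 for Psmb7 to 0.34 for Psmb3. Psmb7 lay just outside the threshold (−3.05 ± 0.93, adjusted p = 0.05003) and was called by DESeq2 and without control 1. Psmb6 (−0.40 ± 0.13, adjusted p = 0.0598) was called in 4 alternatives, DESeq2's test among them. Of the 4 activators none was called, with 1 at an unadjusted p below 0.05 and 1 by DESeq2. Of the 7 chaperones none was called by either tool, and none reached that unadjusted p. Psme2, with −0.67, had the largest log2 change among the activators (adjusted p = 0.0517). Psmb8 had no count with budesonide and 5 in control cells, all in control 2, and the 95% counting intervals overlapped (0 to 0.167 CPM with budesonide and 0.0894 to 0.643 CPM in control cells). With Psmb8 set to the floor over the group the median stayed at −0.22. The calls of Psma4, Psmb10 and Psmc6 held under all 20 alternatives. Psma7 lost its call with length and GC offsets, alone (0.220) or with the replicate block (0.286). Psmc3 lost it with length and GC offsets, alone (0.0683) or with the block (0.107), and with only the groups compared (0.0751). Psmc3 also lost it without control 3 and budesonide 3 together (0.306), budesonide 3 (0.0989) or control 3 (0.130). Psmc4 lost it with length and GC offsets, alone (0.197) or with the block (0.254), and with only the groups compared (0.0829). Psmc4 also lost it without control 3 and budesonide 3 together (0.241), budesonide 1 (0.0814), budesonide 3 (0.0648) or control 3 (0.157). Psmc5 was called in only 2 of the 20 alternatives (adjusted p 0.0109 to 0.520) and Psmd1 in 6 of the 20 alternatives (adjusted p 0.0154 to 0.476). With the length and GC offsets 1 gene rose (Psmb3) and 3 fell, where 4.88% of all genes were called. Without control 3 and budesonide 3 together 5 fell, where 3.98% of all genes were called.

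**Figure D2:**
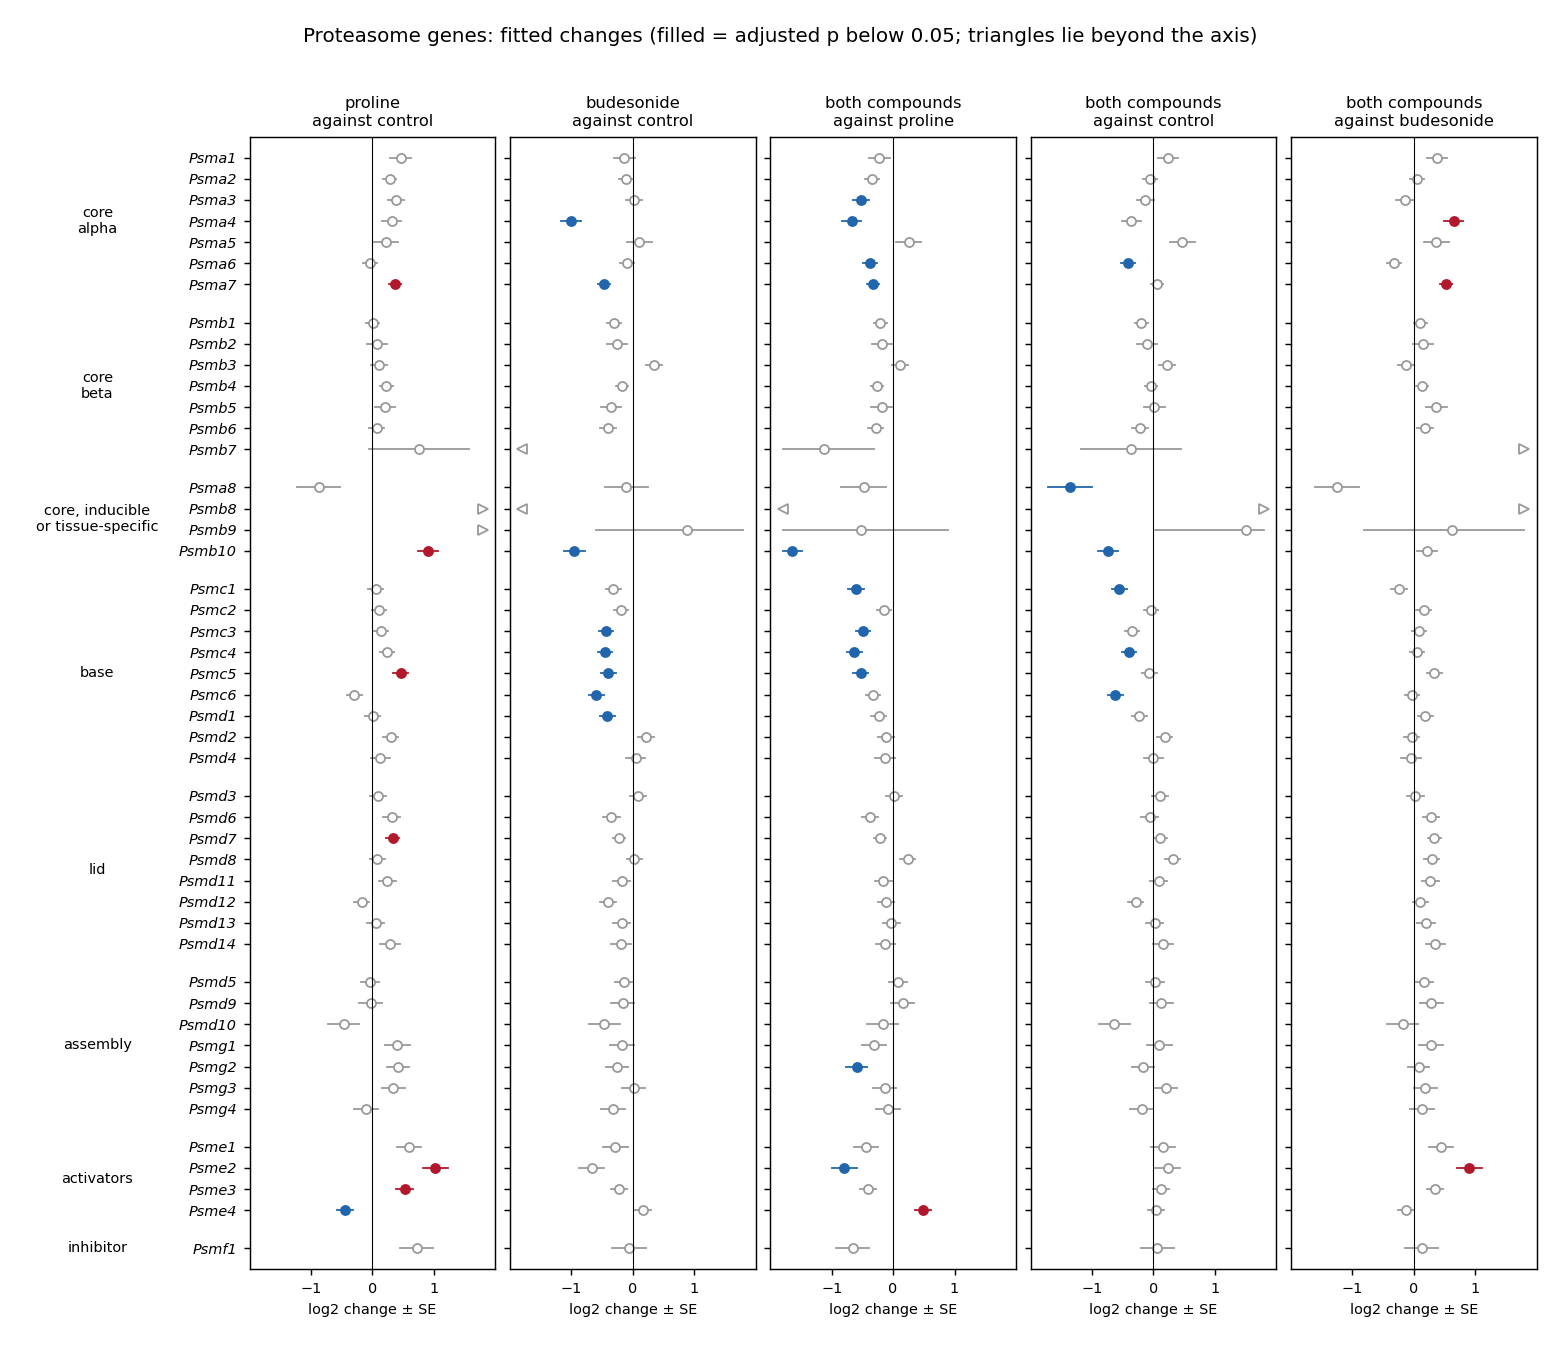
Fitted log2 change with its SE for the 47 proteasome genes tested, by class, in 5 comparisons. Filled points had an adjusted p below 0.05 (red higher, blue lower) and triangles mark values beyond the axis. With proline 6 points are filled red and 1 blue, and with budesonide 8 are blue and none red.

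Budesonide was also compared on top of proline. Of 47 genes, 11 fell and 1 rose in cells with both compounds against cells with proline, where 10.1% of all genes were called (5.83% higher and 4.27% lower). The 11 were the alpha subunits Psma3, Psma4, Psma6 and Psma7, the ATPases Psmc1, Psmc3, Psmc4 and Psmc5, the inducible Psmb10, the activator Psme2 and the chaperone Psmg2. Psme4 was the gene that rose. The median log2 change was −0.27, beside 0.02 for all genes. In 21 genes (44.7%) every library with both compounds lay below every proline library, against 15.6% of all genes, and in 1 (2.13%) every one lay above, against 16.3%.

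Psmb10 had the largest called change of a proteasome gene in the 6 comparisons (log2 change −1.64 ± 0.16 (SE), adjusted p = 4.44e-07), and its libraries with both compounds, at 49.7 to 63.0 CPM, did not reach the lowest control library at 81.5 CPM. The activators Psme2 (−0.79 ± 0.20, adjusted p = 0.0117) and Psme4 (0.49 ± 0.13, adjusted p = 0.0168) changed in opposite directions. The 3 Psme2 libraries with both compounds lay just above the 3 control libraries, and those of Psme4 overlapped the control libraries. The comparison shares its proline libraries with proline against control, so its opposite signs are not independent evidence.

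Psmc1 had 273, 252 and 223 CPM with both compounds, 445, 333 and 358 CPM with proline, 275, 332 and 275 CPM with budesonide, and 348, 389 and 360.2 CPM in control cells. Libraries with both compounds lay below those with proline and those of control cells, and Psmc1 fell against proline (log2 change −0.61 ± 0.13 (SE), adjusted p = 0.00254). Psmc4 (−0.63 ± 0.12, adjusted p = 0.00114), Psmc3 (−0.50 ± 0.11, adjusted p = 0.00627) and Psmc5 (−0.53 ± 0.12, adjusted p = 0.00569) also fell. Psma3 had 161, 152 and 167 CPM with both compounds, 223, 244 and 221 CPM with proline, 158, 171 and 204 CPM with budesonide, and 179.8, 201 and 146 CPM in control cells. Proline libraries were the highest of all and Psma3 fell (log2 change −0.52 ± 0.13 (SE), adjusted p = 0.0135). Psma6 had 252, 238 and 269 CPM with both compounds, 338, 337 and 309 CPM with proline, 303, 325 and 322 CPM with budesonide, and 307, 314 and 392 CPM in control cells, and the libraries with both compounds were the lowest of all. It fell too (log2 change −0.38 ± 0.11 (SE), adjusted p = 0.0377), together with Psma4 (−0.68 ± 0.16, adjusted p = 0.00587) and Psma7 (−0.32 ± 0.10, adjusted p = 0.0337). Psmg2, a partner in a chaperone pair that builds the alpha ring, had 54.7, 64.3 and 54.6 CPM with both compounds, 83.9, 106 and 72.4 CPM with proline, 61.01, 54.4 and 48.99 CPM with budesonide, and 74.8, 57.2 and 63.8 CPM in control cells. It fell against proline (log2 change −0.60 ± 0.18 (SE), adjusted p = 0.0320), with all 3 libraries below the lowest proline library.

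No standard beta subunit and no lid gene was called against proline by edgeR. At an unadjusted p below 0.05, a share not counted over all genes, there were 2 in each class. DESeq2 called 1 in each, where it called 12.6% of all genes. Lid genes ran from −0.38 to 0.24 on the log2 scale. The calls of Psmb10, Psmc1, Psmc3 and Psmc4 held under all 20 alternatives. Psma3 lost its call without both 1 (0.0514), both 2 (0.0715) or proline 2 (0.0600). Psma4 lost it without both 2 (0.0532) or proline 1 (0.0537). Psmc5 lost it with length and GC offsets, alone (0.0606) or with the replicate block (0.0846). Psme2 lost it with the block and offsets together (0.0625) and without both 1 (0.0594) or both 2 (0.0563). Psme4 lost it with length and GC offsets, alone (0.155) or with the block (0.172). Psme4 also lost it without both 1 (0.0556), both 3 (0.0673), proline 2 (0.0529) or proline 3 (0.0692). Psmg2 lost it with length and GC offsets, alone (0.144) or with the block (0.176). Psmg2 also lost it without both 1 (0.126), both 2 (0.0511), both 3 (0.104), proline 1 (0.0705) or proline 2 (0.198). Psma6 was called in 11 of the 20 alternatives (adjusted p 0.0100 to 0.443) and Psma7 in 11 of the 20 alternatives (adjusted p 0.00169 to 0.494).

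The budesonide effect was thus measured once without and once with proline, in contrasts of 1 fit that compare different libraries and share its estimate of the spread. Psma4, Psma7, Psmb10, Psmc3, Psmc4 and Psmc5 fell in both. These 6 are 75% of the 8 genes that fell with budesonide alone and 54.5% of the 11 that fell when it was added to proline. Proline on top of budesonide gave 3 rises, and Psma7 and Psme2 were the 2 shared with proline alone, 33.3% of its 6 rises and 66.7% of the 3. The same overlaps were not counted over all genes tested, so these shares cannot be called particular to proteasome genes.

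**Figure D3:**
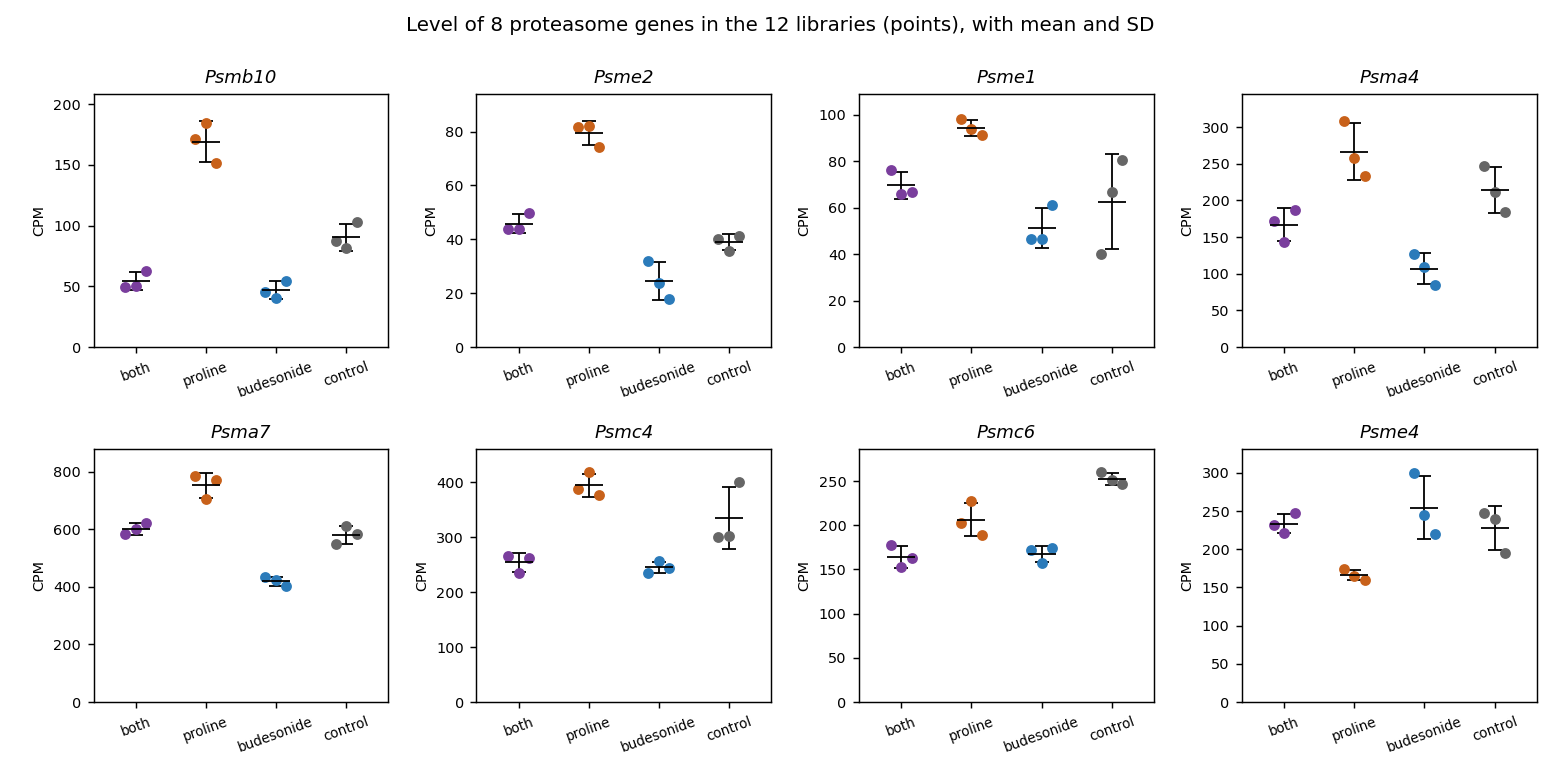
Level in CPM of 8 proteasome genes in each of the 12 libraries (points), with the mean (long bar) and SD of 3 libraries per group, in the order both compounds, proline, budesonide and control. Psmb10 and Psme2 are highest with proline in every library, Psmc6 is highest in control cells, and Psme4 is lowest with proline.

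Cells with both compounds were then set against control, to show the net difference. None of the 47 genes rose and 6 fell, where 7.17% of all genes were called (3.34% higher and 3.83% lower), and the median log2 change was 0.00, beside 0.01 for all genes. In 4 genes (8.51%) every library with both compounds lay above every control library, against 14.4% of all genes, and in 9 (19.1%) every one lay below, against 14%. The 6 were Psmb10 (−0.74 ± 0.16, adjusted p = 0.00582), Psmc6 (−0.62 ± 0.12, adjusted p = 0.00170), Psmc1 (−0.55 ± 0.13, adjusted p = 0.00744), Psma6 (−0.42 ± 0.11, adjusted p = 0.0277), Psmc4 (−0.40 ± 0.12, adjusted p = 0.0460) and Psma8 (−1.36 ± 0.36, adjusted p = 0.0229). Psma8, the alpha subunit of the testis proteasome, had 6.31, 10.7 and 5.07 CPM with both compounds, 14.1, 7.40 and 9.03 CPM with proline, 15, 15.03 and 22.5 CPM with budesonide, and 21.3, 18.1 and 17.1 CPM in control cells. The cells with both compounds and the proline cells had the lower libraries, which overlapped each other and lay below the control libraries. The calls of Psmb10, Psmc1 and Psmc6 held under all 20 alternatives. Psma6 lost its call with length and GC offsets, alone (0.192) or with the replicate block (0.230), and with only the groups compared (0.0571). It was also lost without control 3 and budesonide 3 together (0.124), both 1 (0.102), both 2 (0.138) or control 3 (0.162). Psma8 lost its call with the block and offsets together (0.0621) and without both 1 (0.110), both 3 (0.107), control 1 (0.0833) or control 2 (0.0571). Psmc4 was called in only 6 of the 20 alternatives (adjusted p 0.0135 to 0.279). Without control 3 and budesonide 3 together 4 genes fell, where 6.31% of all genes were called.

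Set against budesonide alone, cells with both compounds showed 3 rises and no fall, where 1.47% of all genes were called (0.874% higher and 0.592% lower). The median log2 change was 0.18 (0.08 with length and GC offsets), beside 0.01 for all genes. In 14 genes (29.8%) every library with both compounds lay above every budesonide library, against 10.2% of all genes, and in 3 (6.38%) every one lay below, against 9.23%. Psme2 (0.90 ± 0.20, adjusted p = 0.0265), Psma4 (0.65 ± 0.16, adjusted p = 0.0374) and Psma7 (0.52 ± 0.10, adjusted p = 0.00633) rose. In each of the 3 genes the libraries with both compounds lay above all budesonide libraries. DESeq2 called 5, 4 higher and 1 lower, where it called 3.94% of all genes. None of the 3 calls was left with the length and GC offsets (0.982% of all genes called). Without control 3 and budesonide 3 together 1 was left (1.36% of all genes called). Psma7 lost its call with length and GC offsets, alone (0.0739) or with the replicate block (0.129). Psma4 lost it with length and GC offsets, alone (0.0960) or with the block (0.0947), and with only the groups compared (0.0774). Psma4 also lost it without control 3 and budesonide 3 together (0.0879), both 1 (0.137), both 3 (0.185), budesonide 2 (0.0686), budesonide 3 (0.169) or control 2 (0.0518). Psme2 lost it with length and GC offsets, alone (0.0723) or with the block (0.0990), and with only the groups compared (0.0914). Psme2 also lost it without control 3 and budesonide 3 together (0.0645), both 1 (0.0745), both 2 (0.0691), both 3 (0.117), budesonide 2 (0.0640) or budesonide 3 (0.118).

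The interaction asks whether proline acted differently when budesonide was present. No proteasome gene was called by edgeR, where 0.469% of all genes were called (0.411% higher and 0.0578% lower), or by DESeq2, where 1.85% were. An unadjusted p below 0.05 was reached by 2 of the 47, a count not made over all genes. For Psmb10 the proline effect with budesonide minus that without was −0.69 ± 0.23 on the log2 scale (SE, adjusted p = 0.298). Over the 6 comparisons, 17 of the 47 genes were called at least once and 36 calls were made, of which 12 held under every alternative. The same counts were not made over all genes tested, so they cannot be read as a trait of proteasome genes.

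Proteasome genes are known to share a transcription factor, Nfe2l1, which with small Maf proteins binds an antioxidant response element, and known proteasome promoters hold such elements. The promoters of 5 genes are printed from RefSeq (GRCm38.p6), each 250 bases before to 50 after an annotated start. They were chosen after their values were seen, to stand for the different patterns over the 4 groups. Capitals mark matches to TGACNNNGC, the core of that element, on either strand.
Psmb10 (chr8:105938343-105938642, minus strand): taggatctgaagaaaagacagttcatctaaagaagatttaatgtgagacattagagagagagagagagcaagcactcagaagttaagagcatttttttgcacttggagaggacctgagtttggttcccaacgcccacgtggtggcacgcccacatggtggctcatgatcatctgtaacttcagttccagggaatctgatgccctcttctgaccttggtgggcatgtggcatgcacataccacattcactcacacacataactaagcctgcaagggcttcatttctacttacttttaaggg
Psme2 (chr14:55591052-55591351, minus strand): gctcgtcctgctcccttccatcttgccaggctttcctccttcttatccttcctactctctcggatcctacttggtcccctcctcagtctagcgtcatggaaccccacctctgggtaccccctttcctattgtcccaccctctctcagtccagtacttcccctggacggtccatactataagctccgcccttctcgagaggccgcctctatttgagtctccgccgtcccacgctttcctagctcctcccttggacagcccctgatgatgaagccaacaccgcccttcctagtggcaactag
Psma4 (chr9:54950609-54950908, plus strand): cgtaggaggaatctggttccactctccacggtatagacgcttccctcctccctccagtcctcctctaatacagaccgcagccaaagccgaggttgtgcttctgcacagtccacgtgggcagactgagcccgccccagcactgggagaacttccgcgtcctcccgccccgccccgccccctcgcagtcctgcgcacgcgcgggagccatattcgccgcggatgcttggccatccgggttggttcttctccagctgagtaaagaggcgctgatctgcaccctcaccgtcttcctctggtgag
Psmc6 (chr14:45329574-45329873, plus strand): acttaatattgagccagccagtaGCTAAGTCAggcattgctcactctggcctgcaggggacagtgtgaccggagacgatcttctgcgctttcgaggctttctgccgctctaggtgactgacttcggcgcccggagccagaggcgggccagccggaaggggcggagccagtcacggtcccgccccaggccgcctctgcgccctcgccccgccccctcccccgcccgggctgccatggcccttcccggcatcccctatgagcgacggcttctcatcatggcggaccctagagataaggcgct
Psme4 (chr11:30771525-30771824, plus strand): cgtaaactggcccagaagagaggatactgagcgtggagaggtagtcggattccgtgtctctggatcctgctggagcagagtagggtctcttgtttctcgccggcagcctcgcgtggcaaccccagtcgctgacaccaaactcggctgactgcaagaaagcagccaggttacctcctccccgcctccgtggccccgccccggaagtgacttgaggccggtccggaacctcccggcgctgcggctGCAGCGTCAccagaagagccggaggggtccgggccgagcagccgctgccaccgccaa
The match of Psmc6 lies on the other strand at −227 and that of Psme4 at −7, counted from the start site, and the windows of Psmb10, Psme2 and Psma4 hold none. Of 43 promoters for 40 of the 48 genes, 6 hold the core (14%), against 12.4% of 32851 promoters. The longer form TGACTCAGC was in none of the 43 and in 0.454% of all, and CCAAT, on either strand, was in 14 (32.6%) and 37.4% of all. A match is a description of letters and says nothing of binding.

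Genes that act beside the subunits were described from lists of their own. Among 9 other proteasome proteins, 8 were tested, among them Pomp, the chaperone that matures the core. It had 340.3, 354 and 457 CPM with both compounds, 626, 595 and 507 CPM with proline, 335, 319 and 379 CPM with budesonide, and 523, 568 and 655 CPM in control cells. Libraries with budesonide, alone or with proline, lay below those of the other groups. Pomp fell with budesonide (log2 change −0.76 ± 0.13 (SE), adjusted p = 0.000661), with both compounds against proline (−0.59 ± 0.13, adjusted p = 0.00357) and with both against control (−0.60 ± 0.13, adjusted p = 0.00423), and these calls held under all 20 alternatives. Against control with budesonide, 3 of the 8 fell (Pomp, Usp14 at −0.52 and Uchl5 at −0.60, the last pair being deubiquitinases of the regulatory particle) and none rose. Of all genes 4% were called lower and 2.51% higher there. The call of Usp14 was lost with only the groups compared (0.0527) and without control 3 and budesonide 3 together (0.0620), budesonide 1 (0.0524), budesonide 2 (0.0557) or control 3 (0.0564). That of Uchl5 was lost with the replicate block (0.0517), with length and GC offsets (0.0895) and with block and offsets together (0.121). It was also lost without control 3 and budesonide 3 together (0.257), budesonide 1 (0.0577), budesonide 3 (0.135), control 1 (0.0854) or control 3 (0.104). With proline 1 rose (Ecpas, 1.51 ± 0.46, adjusted p = 0.0441) and none fell, where 3.17% of all genes were called higher and 4.71% lower. Ecpas was called in 11 of the 20 alternatives (adjusted p 0.0231 to 0.227).

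Nfe2l1 itself had 98.3, 120.0 and 95.4 CPM with both compounds, 113, 92.5 and 86.01 CPM with proline, 90.2, 85.7 and 77.7 CPM with budesonide, and 81.8, 97.3 and 53.7 CPM in control cells. The libraries with both compounds lay above those with budesonide, and all other groups overlapped. Nfe2l1 was not called in any of the 6 comparisons, at adjusted p from 0.176 to 0.990. Among the 8 listed regulators of proteasome transcription, 6 were tested, and none was called with proline or with budesonide alone. Mafg (0.84 ± 0.17, adjusted p = 0.00273) and Nfe2l2 (0.56 ± 0.16, adjusted p = 0.0354) rose with both compounds against control. The call of Mafg held under all 20 alternatives, and that of Nfe2l2 was lost without both 1 (0.0546), both 2 (0.0661), both 3 (0.195), control 1 (0.0922) or control 2 (0.168). Among genes for ubiquitin precursors, Ubb and Rps27a fell with budesonide (log2 change −0.84 ± 0.25 (SE), adjusted p = 0.0456 for Ubb, and −0.92 ± 0.23, adjusted p = 0.0145 for Rps27a). The call of Ubb held in 7 of the 20 alternatives (adjusted p 5.38e-05 to 0.283) and that of Rps27a in 15 of the 20 alternatives (adjusted p 5.62e-12 to 0.148).

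Transcript length moved with the changes of all genes where budesonide was compared. The 47 tested genes have a median length of 1541 bases in the longest coding transcript (555 to 6491, Psme4 being the longest), against 2973 for all genes tested with a length. In budesonide against control the median log2 change of all genes was −0.14 at 1 to 2 kb, where 28 proteasome genes lie with a median of −0.27, and 0.12 at 4 to 8 kb, where 2 lie with a median of 0.01. In both compounds against proline those medians were −0.11 for all genes and −0.35 for the 28, and 0.12 and 0.28 at 4 to 8 kb. In proline against control they were 0.05 and 0.26, and −0.03 and −0.25. With offsets for length and GC content, the median of the 47 genes was 0.16 with proline (beside 0.23 without), −0.11 with budesonide (−0.22) and −0.13 for both compounds against proline (−0.27), and the calls were 6 higher and none lower, 1 higher and 3 lower, and none higher and 9 lower. Of all genes 6.74%, 4.88% and 8.88% were then called, in the same order. The 6 that rose with proline under the offsets were not the same 6 as in the main test. Psme2, Psme3 and Psmb10 kept their calls, Psma7, Psmc5 and Psmd7 lost theirs, and 3 other alpha ring genes were called. The 9 that fell against proline likewise included alpha ring and base genes not called in the main test.

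**Figure D4:**
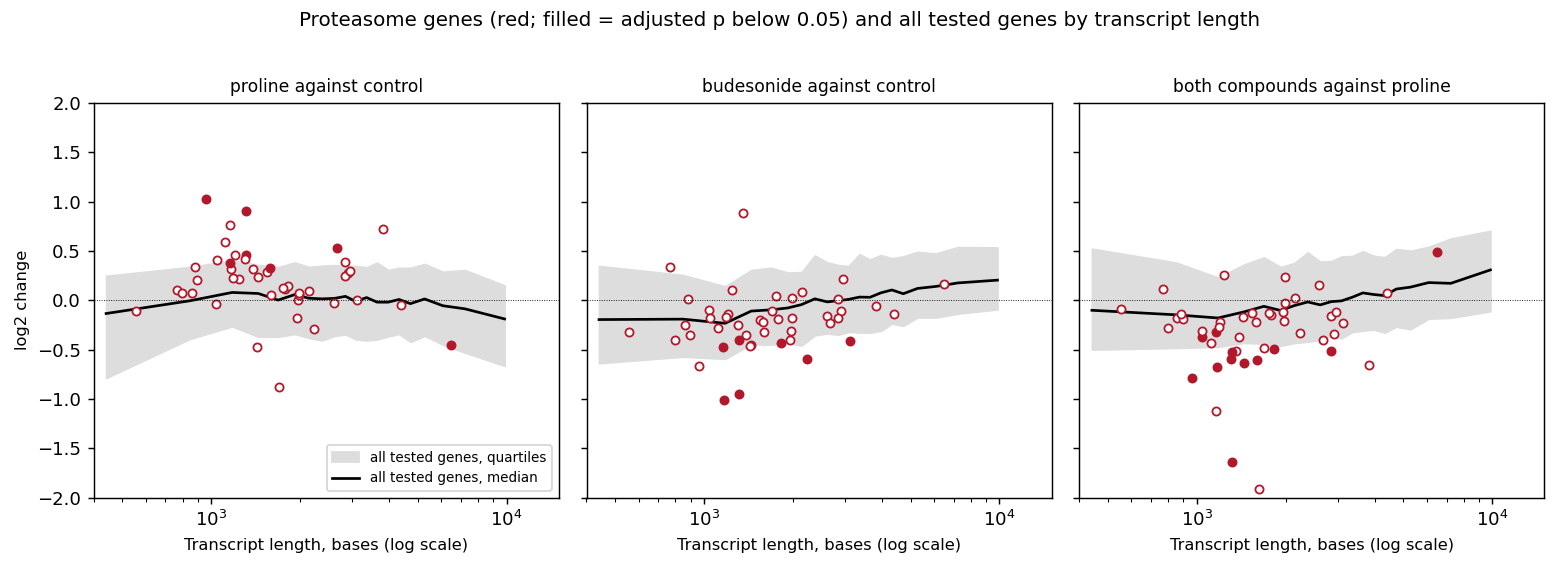
Log2 change (vertical) against transcript length (horizontal, log scale) for the proteasome genes tested, with the median (line) and quartiles (grey) of all genes by length, in 3 comparisons. Filled points had an adjusted p below 0.05. Values beyond ±2, from Psmb7, Psmb8 and Psmb9, are not drawn. In budesonide against control the median of all genes runs from −0.19 up to 1 kb to 0.20 over 8 kb.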

How the data were processed

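The authors deposited whole-number counts per gene symbol, and a second table of normalised signal that was not used here. Per the submitters' processing notes, the tools were bcl2fastq, cutadapt 2.5, STAR 2.7.5c, featureCounts 2.0 and DESeq2, on the build GRCm39, in no stated order, and per the labels' protocols the libraries were QuantSeq 3′ libraries. Not given in the sources used here are the annotation, the strand setting and how multiply matching reads were handled.

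The main test was edgeR 4.0.16's in R 4.3.3 (filterByExpr, minimum count 10 and minimum total 15, TMM scaling, glmQLFit and glmQLFTest, two-sided, all 12 libraries, 1 coefficient per group, 8 residual degrees of freedom). Benjamini-Hochberg adjustment covered 13852 genes, with calls made below 0.05. Each SE was derived from the log2 change and its F statistic, with a prior count of 0.125. The test was checked on simulated counts. DESeq2 1.42.0 served its own test, and edgeR fits served the other alternatives. No limma test was run, though limma 3.58.1 was present. The alternatives were another scaling, no filter, DESeq2's test, length and GC offsets (splines, 5 degrees of freedom, on the longest protein-coding transcript of GENCODE, GRCm38), a replicate block, fewer groups and left-out libraries. Libraries of 1 group differed by more than sampling noise, so none was counted as a duplicate. Intervals and floors cover counting error only.

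The members, classes, lists and tests were chosen with earlier results of these data known. Values in every library are given for members called at least once, the inducible and tissue-specific core subunits (Psmb11 by summed counts), Pomp and Nfe2l1. Outside that rule they are also given for Irf1, H2-K1, Psme1 and Psmf1, the last pair being members that the main test never called. Promoters were matched by symbol for 40 of the 48 genes. Some results on genes of the ubiquitin system are not reported here.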

Additional observations from a re-analysis of the deposited data

Results flagged for a closer look

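Irf1, a transcription factor of the interferon response that is known to drive Psmb8, Psmb9 and Psme genes, had 99.2, 107 and 86.4 CPM with both compounds, 146, 95.3 and 145 CPM with proline, 71.95, 73.6 and 79.9 CPM with budesonide, and 30.6, 45.5 and 39.6 CPM in control cells. The libraries of the 3 treated groups lay above all control libraries. The proline effect differed with and without budesonide, by a test of the difference itself: the effect with budesonide minus that without was −1.36 on the log2 scale (SE 0.25, edgeR adjusted p = 0.00864, and up to 0.0431 over the alternatives). Irf1 rose with proline (log2 change 1.74 ± 0.18 (SE), adjusted p = 9.19e-07) and with budesonide (0.96 ± 0.18, adjusted p = 0.00202) against control, while Psmb10 rose with proline and fell with budesonide.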

How the results depend on the processing

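The 3 libraries per group and, for Psmb7, Psmb8, Psmb9 and Psmb11, the few counts limit these results. The members called at least once and Psmb8 and Psmb9 were recomputed under the alternatives. Of 2247 such values 2054 stayed on their side of the threshold. Among these, 59 log2 changes that were called in neither fit turned in sign. A further 171 values lost a call, 22 gained 1, and no called change turned in sign. With proline the count of 7 calls was 4 with the replicate block and length and GC offsets together, and 2 to 8 with 1 library left out (2 without proline 3, and 3 without proline 1 or control 1). The share of all genes called was 7.88% in the main test and 5.92% with block and offsets. It was 4.84% without proline 3, 4.6% without proline 1 and 4.9% without control 1. With budesonide the count of 8 was 13 by DESeq2's test, 4 with the offsets, 4 with the block and offsets, 4 with only the groups compared, 5 without control 3 and budesonide 3, and 4 to 8 with 1 library left out (4 without budesonide 3, and 5 without control 3). The share of all genes called was 6.51% in the main test, 11.7% by DESeq2's test, 4.88% with the offsets and 3.89% with block and offsets. It was 3.98% with only the groups compared and also without control 3 and budesonide 3, 4.25% without budesonide 3 and 4.34% without control 3. For both compounds against proline, 12 became 6 to 14 with 1 library left out (6 without both 1 or both 2), and over the other settings it ran from 8 with the block and offsets to 17 by DESeq2's test. Of all genes 10.1% were called in the main test, 5.66% without both 1, 5.92% without both 2, 7.86% with block and offsets and 12.6% by DESeq2's test. Against control 6 became 3 with the block and offsets, and 3 to 6 with 1 library left out (3 without both 1). Of all genes 7.17% were called in the main test, 5.87% with block and offsets and 3.64% without both 1. Against budesonide 3 became 5 by DESeq2's test, 0 with the offsets, 0 with the block and offsets, 1 with only the groups compared, 1 without control 3 and budesonide 3, and 1 to 3 with 1 library left out (1 without both 1, both 3, budesonide 2 or budesonide 3). Of all genes 1.47% were called in the main test, 3.94% by DESeq2's test, 0.982% with the offsets and 0.679% with block and offsets. The share was 0.951% with only the groups compared and 1.36% without control 3 and budesonide 3. It was 0.542% without both 1, 0.562% without both 3, 1.16% without budesonide 2 and 0.631% without budesonide 3. The interaction stayed at 0. The cause of these moves was not tested, beyond the smaller samples. The replicate numbers do not pair the libraries (18 same-number pairs, correlation of deviations −0.0767 to 0.0529). With the replicate block alone the counts were 6 with proline, 6 with budesonide, 10 for both compounds against proline, 5 against control, 3 against budesonide and 0 for the interaction. The shares of all genes called were then 6.69%, 5.54%, 8.86%, 6.27%, 0.924% and 0.332%, in the same order.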

Other observations

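Genes of class I antigen processing, which share regulators with the inducible proteasome subunits, were counted beside them. Of 10 listed genes 8 were tested. With proline 2 rose, Irf1 and H2-K1, the heavy chain of a class I molecule, which had 18.9, 21.6 and 22.8 CPM with both compounds, 42.3, 45.3 and 37.4 CPM with proline, 9.59, 9.76 and 17.4 CPM with budesonide, and 16.04, 15.8 and 24.2 CPM in control cells. The proline libraries of H2-K1 lay above all others, and it rose (log2 change 1.15 ± 0.28 (SE), adjusted p = 0.00920) and fell in cells with both compounds against proline (−0.98 ± 0.27, adjusted p = 0.0221). With budesonide 3 rose against control: Irf1, Tapbp, which loads peptides (0.93 ± 0.18, adjusted p = 0.00234), and B2m, the light chain (0.87 ± 0.24, adjusted p = 0.0261). No gene of this list was called lower with budesonide, but only 4 of the 8 had a log2 change above 0. The changes ran from −0.97 to 1.39. H2-K1, for example, averaged 12.2 CPM with budesonide and 18.7 CPM in control cells. Of all genes 3.17% were called higher with proline and 2.51% with budesonide. The call of H2-K1 was lost without control 1 (0.0556) or control 2 (0.0563) against control and without both 1 (0.104), both 2 (0.0700), proline 1 (0.0709) or proline 2 (0.0828) against proline, and that of B2m with only the groups compared (0.0880) and without control 3 and budesonide 3 together (0.207), budesonide 1 (0.0819), budesonide 3 (0.0781) or control 3 (0.1249).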
